A study of Homo sapiens with 6 samples.

Results

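RAB proteins are the largest family of RAS-like small GTPases, and their 53 rows among the 19021 rows of a gene table from Huh7 cells are described here. A row was taken as a RAB gene when its symbol was RAB followed by digits, with or without a single trailing letter. Huh7 is an established line of human hepatocellular carcinoma cells. The groups were 3 libraries of wild-type Huh7 cells given DMSO, the solvent control, and 3 libraries of the same cells given carfilzomib, a proteasome inhibitor, both collected after 24 h in 6-well plates. The labels give no dose. They do not say either that replicates were separate cultures, so the p-values cover only the spread among libraries, and that spread may be technical.

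As background, a RAB protein cycles between a GDP-bound and a GTP-bound form and so marks the membrane on which it sits. Guanine nucleotide exchange factors load GTP and GTPase-activating proteins speed its hydrolysis. GDP dissociation inhibitors carry the inactive, prenylated protein through the cytosol, and effectors are the proteins that only the GTP form recruits. Each compartment of the cell is known for its own RABs, and in hepatocytes they steer the export of plasma proteins, the uptake of receptors and the clearing of cargo in lysosomes. The genes were grouped by textbook role into 20 secretory members (endoplasmic reticulum, Golgi and exocytosis), 17 endosomal members (early, recycling and late endosomes), 8 autophagic members (which here include lysosomes and lysosome-related organelles) and 8 with other roles. RAB6D was placed with the other roles because it was in no list, while its close relative RAB6C was counted as secretory. RAB7A acts on late endosomes as well and was counted as autophagic, while RAB7B, RAB9A and RAB9B were counted as endosomal. Some members act in more than a single place, and counts without those members are given below.

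Levels are in FPKM, fragments per kilobase, scaled to the depth of the library, so that levels of different genes can be compared per length. A gene was tested when its mean over the 6 libraries was at least 1 FPKM, and 42 RAB genes were, while 11 were not. Differences are carfilzomib minus DMSO on the log2(FPKM + 1) scale with the standard error (SE) of the limma fit, which understates the change of low genes. "Rose", "fell", "higher" and "lower" are used for genes with a Benjamini-Hochberg adjusted p under 0.05 over all 11153 genes tested. Libraries held 38386581 to 39651170 reads, and the tested members had 127 reads (RAB3C) to 25224 reads (RAB1B) in a library. The hepatocyte markers were high in both groups (ALB at 2700 FPKM with DMSO and 1090 with carfilzomib, HNF4A at 39.4 and 17.1), while of 8 markers of immune, fibroblast and endothelial cells PTPRC, DCN, CDH5 and VWF had group means of at most 0.0227 FPKM. The other 4 were above that, CD68 (immune) at 33.2 FPKM with DMSO and 46.9 with carfilzomib, PECAM1 (endothelial) at 3.94 and 2.58, and COL1A1 and PDGFRB (fibroblast) at 0.368 and 0.523 and at 0.396 and 0.282. Their part in the results was not tested. In this bulk measurement fewer cells of a type and less RNA per cell cannot be told apart.

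The sequences upstream of 6 members are shown first because they carry the promoter matches and a pair of close relatives that come up below. They are RefSeq promoter windows on GRCh38.p14, each running from 250 bases before to 50 bases after an annotated start site, read 5′ to 3′ on the strand of the gene, and they were chosen after values had been seen. Capitals mark matches to CACGTG, TCACGTGA or TGACNNNGC. RAB5A (chr3:19946847-19947146, plus strand) and RAB21 (chr12:71754613-71754912, plus strand) hold TCACGTGA, RAB4A (chr1:229270861-229271160, plus strand) and RAB29 (chr1:205775433-205775732, minus strand) hold CACGTG outside that longer motif, RAB8A (chr19:16111639-16111938, plus strand) holds no match and RAB8B (chr15:63189356-63189655, plus strand) holds TGACNNNGC.
RAB5A: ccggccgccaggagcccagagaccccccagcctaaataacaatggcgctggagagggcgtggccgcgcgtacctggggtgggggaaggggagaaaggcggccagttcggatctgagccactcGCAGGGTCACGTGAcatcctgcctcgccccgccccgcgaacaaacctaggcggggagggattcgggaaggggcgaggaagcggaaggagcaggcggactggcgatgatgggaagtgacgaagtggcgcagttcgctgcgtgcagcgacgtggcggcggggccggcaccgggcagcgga
RAB21: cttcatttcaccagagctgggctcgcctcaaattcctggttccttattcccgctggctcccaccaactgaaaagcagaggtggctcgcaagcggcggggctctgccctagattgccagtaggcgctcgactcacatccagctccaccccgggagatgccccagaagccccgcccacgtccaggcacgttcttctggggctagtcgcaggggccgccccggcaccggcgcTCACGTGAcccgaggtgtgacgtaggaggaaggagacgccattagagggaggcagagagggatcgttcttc
RAB4A: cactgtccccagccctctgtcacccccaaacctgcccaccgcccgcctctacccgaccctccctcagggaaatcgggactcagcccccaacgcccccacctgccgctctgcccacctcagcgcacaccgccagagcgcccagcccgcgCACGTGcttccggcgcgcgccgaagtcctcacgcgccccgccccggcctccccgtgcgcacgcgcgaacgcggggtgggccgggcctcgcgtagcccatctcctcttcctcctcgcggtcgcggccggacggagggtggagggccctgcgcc
RAB29: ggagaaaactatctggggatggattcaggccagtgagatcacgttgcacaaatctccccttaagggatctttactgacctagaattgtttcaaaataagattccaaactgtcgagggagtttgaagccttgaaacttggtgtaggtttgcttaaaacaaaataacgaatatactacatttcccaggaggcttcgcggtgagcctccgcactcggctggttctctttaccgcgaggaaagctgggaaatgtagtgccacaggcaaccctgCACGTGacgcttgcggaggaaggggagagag
RAB8A: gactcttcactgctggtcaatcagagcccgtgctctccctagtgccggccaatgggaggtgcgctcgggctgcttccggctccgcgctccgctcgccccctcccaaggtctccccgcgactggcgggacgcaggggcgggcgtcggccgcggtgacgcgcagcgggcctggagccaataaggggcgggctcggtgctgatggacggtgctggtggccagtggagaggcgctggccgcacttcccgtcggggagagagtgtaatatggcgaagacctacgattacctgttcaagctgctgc
RAB8B: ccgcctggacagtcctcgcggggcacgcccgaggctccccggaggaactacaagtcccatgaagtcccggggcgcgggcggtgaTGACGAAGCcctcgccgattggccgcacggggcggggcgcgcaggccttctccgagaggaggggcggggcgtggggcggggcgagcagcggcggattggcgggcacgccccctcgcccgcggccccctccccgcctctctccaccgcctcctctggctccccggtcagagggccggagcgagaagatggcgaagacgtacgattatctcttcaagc

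Of the 42 tested members, 20 rose, 14 fell and 8 did not pass the test. The share of members that passed, 81.0%, was close to the 81.6% of all tested genes that passed, so a call alone sets no RAB gene apart in these data. Among the members 47.6% rose and 33.3% fell, against 36.7% and 44.9% of all tested genes, and the median difference was 0.10 for the members and -0.07 for all genes. The FPKM of the groups did not overlap for 36 of 42 members, and did not for 82.8% of all genes. RAB3B alone rose by at least 1 on the log2(FPKM + 1) scale and 0 members fell by that much, where 5.28% of all genes rose and 7.84% fell by at least 1. These counts depend on the added constant, and with a pseudocount of 0.1 or with limma-voom on recovered reads 2 members rose and 3 fell by at least 1. The median absolute difference was 0.38 for the members and 0.40 for all genes. By the ratio of mean FPKM, 2 members at least doubled (RAB3B and RAB6B) and 3 fell to 0.5 or less (RAB3C, RAB37 and RAB8B).

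**Figure D1:**
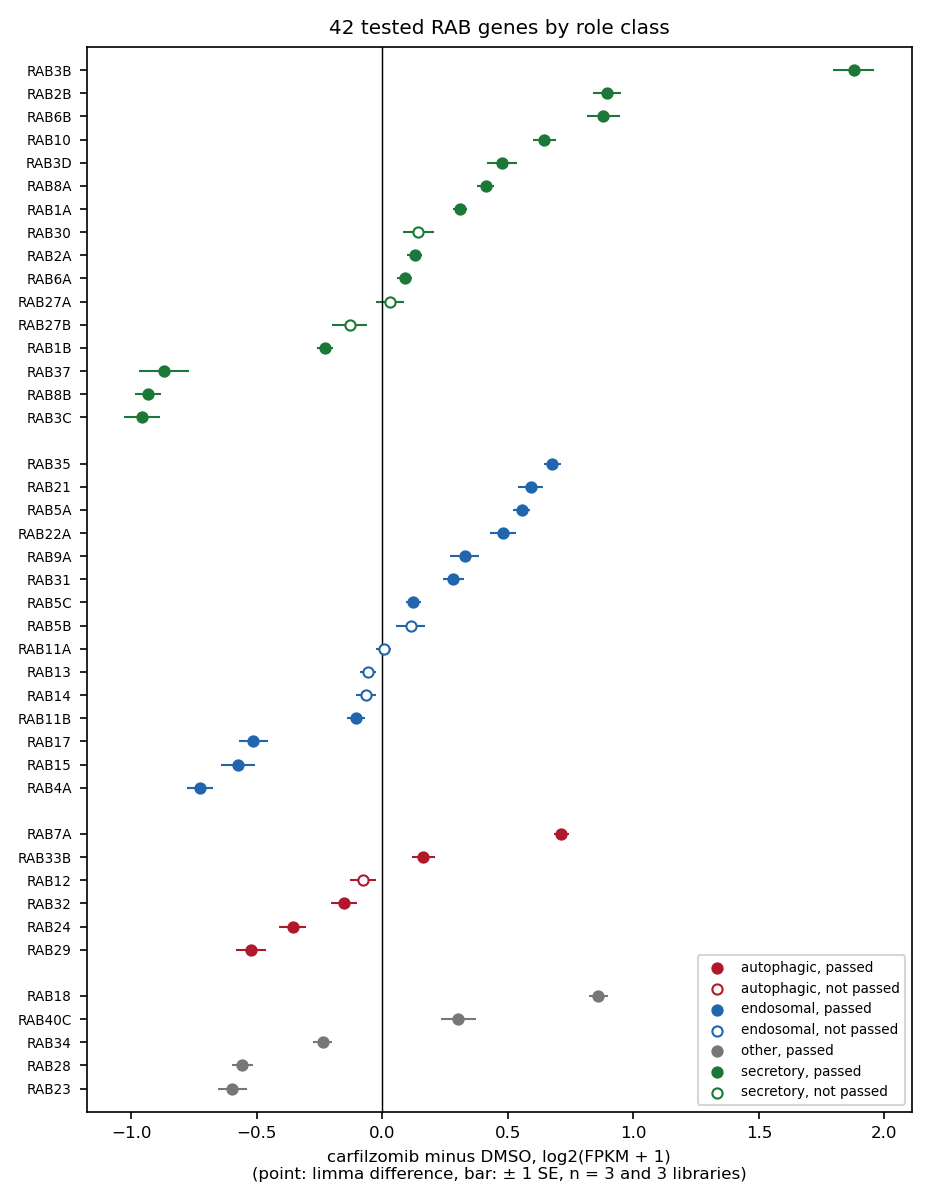
Difference between carfilzomib and DMSO on the log2(FPKM + 1) scale for the 42 tested RAB genes, sorted within each role class (points, limma difference; bars, ± 1 SE; 3 libraries per group; filled points passed the test, open points did not). Each class holds genes on both sides of 0, from RAB3B at 1.88 to RAB3C at -0.96.

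Exons of 23 of the 42 tested members overlap another protein-coding or long non-coding gene in GENCODE 29 (GRCh38), 13 of them a protein-coding gene, and the sources used here do not say whether strand was used in counting. RAB6C and RAB6D are near-identical copies of RAB6A, so reads of these 3 may have been shared and their values are uncertain. Replicates of each group varied beyond counting noise, with a chi-square per degree of freedom of 6.26 and 6.89 between DMSO replicate 1 and the other DMSO libraries and of 3.68 to 5.18 for the remaining pairs. Without DMSO replicate 1, 41 members passed the filter, of which 19 rose and 13 fell.

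Among the 16 tested secretory members 9 rose, 4 fell and 3 did not pass. The rises ran from RAB3B, which was about 5-fold higher, to RAB6A, at a ratio of 1.07, and the falls took in RAB1B, the most abundant RAB transcript of untreated cells. The share that passed, 81.25%, was near that of all genes, and the class median was 0.14 (all genes -0.07).

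RAB3 proteins tether secretory vesicles before regulated exocytosis and are best known from neurons and endocrine cells. RAB3B stood at 1.92, 1.64 and 2.40 FPKM in DMSO replicates 1 to 3 and at 9.98, 9.93 and 9.86 FPKM in carfilzomib replicates 1 to 3. All carfilzomib libraries lay above all DMSO libraries. RAB3B rose from 1.99 ± 0.383 to 9.92 ± 0.0628 FPKM (SD, n = 3 and 3), a ratio of 4.99 and a difference of 1.88 (SE 0.0828, limma adjusted p = 1.49e-08). RAB3C went the other way. It held 1.62, 1.78 and 1.84 FPKM with DMSO and 0.472, 0.363 and 0.404 FPKM with carfilzomib, without overlap, and fell to a ratio of 0.237 (difference -0.96, SE 0.0714, limma adjusted p = 7.14e-07). RAB3C averaged 0.413 FPKM with carfilzomib, so it passed the filter only through the DMSO libraries. RAB3D, the RAB3 member known from exocrine granules, rose from 2.97 ± 0.174 to 4.53 ± 0.256 FPKM. On whole reads recovered from the FPKM values, limma-voom, which does not add 1 FPKM, gave larger differences of 2.34 for RAB3B and -2.08 for RAB3C.

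RAB6 proteins direct traffic within the Golgi and back to the endoplasmic reticulum, and RAB6B is the form best known from brain. RAB6B was at 0.662, 0.631 and 0.700 FPKM with DMSO and at 2.07, 1.94 and 2.18 FPKM with carfilzomib. It rose to a ratio of 3.11, with no overlap (difference 0.88, SE 0.0664, limma adjusted p = 7.79e-07). RAB6B averaged 0.664 FPKM with DMSO, so it passed the filter only through the carfilzomib libraries, and its being tested depended on the rise. Its exons overlap those of SRPRB on the opposite strand by up to 381 bases, so if strand was not used the reads of the pair cannot be told apart. RAB6A, the common form, was far more abundant and moved little, from 42.3 ± 0.731 to 45.1 ± 0.895 FPKM (difference 0.09, limma adjusted p = 0.0222). Its call was lost without DMSO replicate 1 (limma adjusted p = 0.0566), carfilzomib replicate 1 (limma adjusted p = 0.0798) or carfilzomib replicate 3 (limma adjusted p = 0.0514).

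RAB2B, which like RAB2A acts on the Golgi, had 6.67, 6.27 and 7.13 FPKM with DMSO and 14.0, 13.2 and 12.7 FPKM with carfilzomib. Every carfilzomib library was above every DMSO library, and the ratio was 1.99 (difference 0.90, SE 0.0554, limma adjusted p = 1.80e-07). RAB2A, more abundant, rose only from 30.1 ± 0.230 to 33.0 ± 0.507 FPKM (limma adjusted p = 0.00294). RAB10, known for moving GLUT4 vesicles to the plasma membrane, was at 36.2, 36.6 and 39.3 FPKM with DMSO and at 61.6, 59.8 and 55.5 FPKM with carfilzomib. The groups were again apart, at a ratio of 1.58 (difference 0.64, SE 0.0462, limma adjusted p = 5.28e-07).

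RAB8A and RAB8B, close relatives that carry cargo from the trans-Golgi network to the cell surface and the cilium, moved in opposite directions. RAB8B went from 16.8, 17.0 and 17.8 FPKM with DMSO to 9.18, 8.49 and 7.93 FPKM with carfilzomib. No library of a group reached the other group, and RAB8B fell to a ratio of 0.497 (difference -0.93, SE 0.0526, limma adjusted p = 8.84e-08). RAB8A rose from 27.7 ± 0.756 to 37.2 ± 0.479 FPKM (difference 0.41, SE 0.0330, limma adjusted p = 1.25e-06). Its exons overlap HSH2D on the same strand by up to 207 bases.

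RAB1A and RAB1B are the RABs of transport from the endoplasmic reticulum to the Golgi, and they too parted. RAB1B was at 283, 300.2 and 295 FPKM with DMSO and at 249, 254 and 245 FPKM with carfilzomib. The carfilzomib libraries were all lower, and RAB1B fell by a small amount for so abundant a transcript (ratio 0.853, difference -0.23, SE 0.0307, limma adjusted p = 6.10e-05). RAB1A rose from 90.7 ± 2.09 to 113 ± 1.54 FPKM (difference 0.31, limma adjusted p = 3.85e-06). RAB37, known from secretory granules of mast cells, fell from 4.05, 3.56 and 3.31 FPKM with DMSO to 1.81, 1.20 and 1.64 FPKM with carfilzomib, again without overlap (ratio 0.425, difference -0.87, SE 0.0978, limma adjusted p = 1.61e-05).

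The other 3 secretory members did not pass. RAB27A and RAB27B, which dock secretory granules and multivesicular endosomes at the plasma membrane, had means of 10.76 and 11.03 FPKM and of 2.84 and 2.504 FPKM with DMSO and carfilzomib in that order, with overlapping groups (limma adjusted p = 0.622 and 0.110). RAB30, a Golgi RAB, was at 1.66 ± 0.0259 FPKM with DMSO and 1.94 ± 0.106 FPKM with carfilzomib (limma adjusted p = 0.0514), and its groups did not overlap.

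Of the 15 tested endosomal members 7 rose, 4 fell and 4 did not pass, so that 73.3% passed against 81.6% of all genes. The median difference was 0.11. With median-of-ratios scaling, which moved the median of all genes up by less than 0.1, the split was 9 higher and 3 lower. Of all genes that passed, 50.4% were higher with that scaling and 45.0% in the main fit. RAB5A, the early endosome RAB, was among the rises and RAB4A, a RAB of fast recycling, was the largest fall.

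RAB5 proteins drive the fusion of early endosomes. RAB5A was at 44.1, 46.3 and 44.4 FPKM with DMSO and at 65.6, 65.6 and 68.2 FPKM with carfilzomib. It rose to a ratio of 1.48, with the groups well apart (difference 0.55, SE 0.0326, limma adjusted p = 1.20e-07). RAB5C, the most abundant endosomal member, had 87.9, 86.4 and 88.7 FPKM with DMSO and 93.2, 95.5 and 98.1 FPKM with carfilzomib, and its rise was small though the groups did not overlap (ratio 1.09, difference 0.12, SE 0.0296, limma adjusted p = 0.00311). Quantile normalization ended that call, with a difference of 0.02 and an adjusted p of 0.549 in limma. RAB5B, at 8.04 ± 0.589 and 8.76 ± 0.356 FPKM, did not pass (limma adjusted p = 0.0908).

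The other larger rises were in RABs of recycling and of cargo sorting. RAB35, which acts in fast recycling and in cell division, stood at 19.8, 19.3 and 18.9 FPKM with DMSO and at 31.8, 31.8 and 30.9 FPKM with carfilzomib. This was the largest rise of the class on the log2(FPKM + 1) scale (ratio 1.63, difference 0.68, SE 0.0338, limma adjusted p = 3.62e-08). RAB21, which binds integrins on their way through endosomes, was at 6.75, 7.23 and 7.19 FPKM and then at 11.4, 11.5 and 10.5 FPKM, with no overlap (ratio 1.58, difference 0.59, SE 0.0493, limma adjusted p = 1.66e-06). RAB22A, a RAB5 relative on early and recycling endosomes, went from 6.29, 6.17 and 7.00 FPKM to 9.27, 9.50 and 9.57 FPKM, all carfilzomib libraries being higher (ratio 1.46, difference 0.48, SE 0.0521, limma adjusted p = 1.19e-05). RAB9A, which returns cargo from late endosomes to the trans-Golgi network, rose from 18.7 ± 1.61 to 23.7 ± 1.07 FPKM, and RAB31, which runs between the trans-Golgi network and endosomes, from 23.8 ± 0.961 to 29.1 ± 1.28 FPKM.

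Falls were seen in RABs of recycling and of polarized transport. RAB4A was at 17.2, 17.2 and 18.6 FPKM with DMSO and at 10.6, 10.6 and 9.56 FPKM with carfilzomib. It fell to a ratio of 0.582 without overlap (difference -0.73, SE 0.0514, limma adjusted p = 4.78e-07). Exons of SPHAR overlap it on the same strand by up to 648 bases. RAB15, a recycling RAB known from neurons, went from 6.67, 6.13 and 7.47 FPKM to 4.30, 4.25 and 4.02 FPKM, with all carfilzomib libraries lower (ratio 0.621, difference -0.58, SE 0.0666, limma adjusted p = 1.98e-05). RAB17, an epithelial RAB of polarized transport, fell from 12.1, 10.3 and 10.5 FPKM to 7.41, 7.47 and 7.24 FPKM, and its groups were apart too (ratio 0.672, difference -0.51, SE 0.0575, limma adjusted p = 1.56e-05).

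RAB11A and RAB11B are the RABs of the slow recycling endosome. RAB11B held 46.1, 47.2 and 44.4 FPKM with DMSO and 42.6, 43.7 and 41.4 FPKM with carfilzomib, a narrow gap (ratio 0.928, difference -0.11, SE 0.0351, limma adjusted p = 0.0187). Its call was lost without DMSO replicate 2 (limma adjusted p = 0.0774) and without carfilzomib replicate 3 (limma adjusted p = 0.0708). RAB11A differed least of all tested members, with 33.0 ± 0.509 and 33.1 ± 0.143 FPKM (limma adjusted p = 0.885). RAB13, known from tight junctions, and RAB14, which runs between Golgi and endosomes, did not pass either, at 25.0 ± 0.517 and 24.0 ± 0.308 FPKM for RAB13 (limma adjusted p = 0.136) and at 48.5 ± 1.31 and 46.4 ± 2.09 FPKM for RAB14 (limma adjusted p = 0.148).

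The autophagic class held 6 tested members, of which 2 rose, 3 fell and 1 did not pass, so that 83.3% passed against 81.6% of all genes. The class median was -0.11, yet the class held the RAB transcript with the largest absolute gain in FPKM. That was RAB7A, the RAB of late endosomes that brings them and autophagosomes to fuse with lysosomes. It stood at 170, 166 and 165 FPKM with DMSO and at 268, 282 and 271 FPKM with carfilzomib. The ratio was 1.64 with no overlap (difference 0.71, SE 0.0293, limma adjusted p = 9.36e-09). RAB7A was the second most abundant RAB transcript with DMSO, behind RAB1B, and the most abundant with carfilzomib.

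The remaining autophagic members were less abundant and most of them were lower. RAB33B, a Golgi RAB that binds the autophagy protein ATG16L1, was at 6.08, 6.09 and 6.34 FPKM with DMSO and at 7.15, 7.13 and 6.80 FPKM with carfilzomib, a small rise without overlap (ratio 1.14, difference 0.16, SE 0.0456, limma adjusted p = 0.00769). RAB29, a partner of the kinase LRRK2 on lysosomes and the Golgi, went from 16.3, 18.4 and 16.0 FPKM to 12.3, 11.3 and 10.8 FPKM, with all carfilzomib libraries lower (ratio 0.678, difference -0.52, SE 0.0609, limma adjusted p = 2.08e-05). RAB24, linked to the clearing of autophagosomes, fell from 18.8, 16.7 and 18.6 FPKM to 13.2, 14.5 and 13.9 FPKM (ratio 0.768, difference -0.36, SE 0.0541, limma adjusted p = 1.49e-04). Its groups were apart, and MXD3 overlaps its exons on the same strand by up to 347 bases.

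RAB32, a RAB of lysosome-related organelles and mitochondria, was the second most abundant of the class, at 64.9, 59.5 and 57.8 FPKM with DMSO and at 54.2, 57.8 and 51.7 FPKM with carfilzomib. The lowest DMSO library and the highest carfilzomib library nearly met (ratio 0.898, difference -0.15, SE 0.0510, limma adjusted p = 0.0190). Without DMSO replicate 1 the limma adjusted p was 0.0599 and without carfilzomib replicate 3 it was 0.0764. RAB12, which sends the transferrin receptor to degradation, overlapped between groups, at 10.8 ± 0.630 and 10.2 ± 0.458 FPKM (limma adjusted p = 0.197). With median-of-ratios scaling the class stood at 2 higher and 2 lower, where 50.4% of all genes that passed were higher (45.0% in the main fit).

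**Figure D2:**
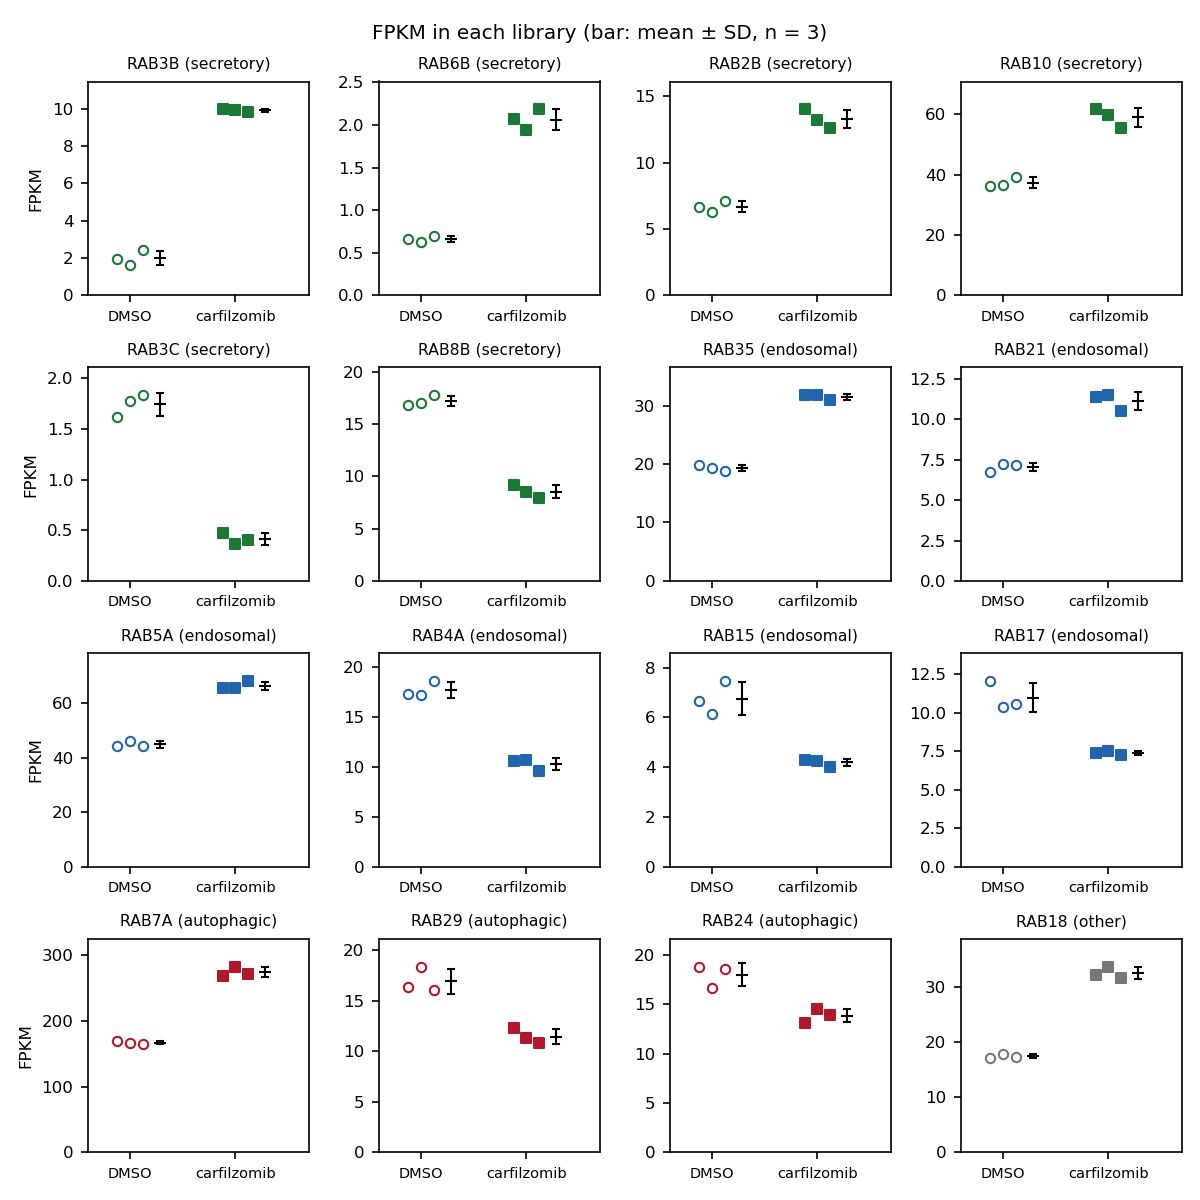
FPKM in each library for 16 RAB genes (open circles, DMSO replicates 1 to 3; filled squares, carfilzomib replicates 1 to 3; bars, mean ± SD, n = 3; each panel has its own axis from 0). In all 16 panels the groups are apart, as for RAB7A at 165 to 170 FPKM against 268 to 282 FPKM. The genes shown all passed the test and do not stand for the family. Groups did not overlap for 36 of 42 tested members and for 82.8% of all tested genes.

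The 5 tested members with other roles all passed, 2 higher and 3 lower, where 81.6% of all tested genes passed. RAB18, which sits on the endoplasmic reticulum and lipid droplets, was at 17.2, 17.9 and 17.3 FPKM with DMSO and at 32.2, 33.7 and 31.6 FPKM with carfilzomib. It was the largest rise outside the secretory class, with the groups far apart (ratio 1.86, difference 0.86, SE 0.0367, limma adjusted p = 1.19e-08). RAB40C, whose SOCS box ties it to a ubiquitin ligase, rose from 3.61, 4.08 and 3.33 FPKM to 5.05, 4.54 and 4.68 FPKM, without overlap (ratio 1.29, difference 0.30, SE 0.0692, limma adjusted p = 0.00235).

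The 3 falls were in RAB23, RAB28 and RAB34. RAB23, a negative regulator of Hedgehog signalling, held 3.99, 4.36 and 4.00 FPKM with DMSO and 2.34, 2.32 and 2.47 FPKM with carfilzomib (ratio 0.578, difference -0.60, SE 0.0571, limma adjusted p = 4.62e-06). Its groups were apart, and its exons overlap BAG2 on the opposite strand by up to 2842 bases, so if strand was not used the reads of the pair cannot be told apart. RAB28, known from cilia of photoreceptors, went from 20.1, 21.3 and 19.3 FPKM to 13.2, 13.3 and 13.7 FPKM (ratio 0.663, difference -0.56, SE 0.0421, limma adjusted p = 7.83e-07). RAB34, needed early in building the cilium, fell from 32.4, 29.7 and 31.0 FPKM to 26.0, 25.7 and 26.8 FPKM (ratio 0.842, difference -0.24, SE 0.0388, limma adjusted p = 2.47e-04). In both genes every carfilzomib library was below every DMSO library.

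The 11 members under the filter were described by their recovered reads and were given no test. RAB26, RAB39B and RAB40B, which act in regulated secretion, in neurons and in ubiquitin ligation, had fewer reads in every carfilzomib library than in any DMSO library: RAB26 had 43, 41 and 31 with DMSO and 8, 9 and 14 with carfilzomib. RAB39B had 27, 23 and 24 against 11, 4 and 10, and RAB40B had 67, 71 and 80 against 29, 26 and 14. RAB38, the melanosome relative of RAB32, had 13, 12 and 5 against 4, 4 and 3, too few to read closely. RAB9B and RAB7B, both late endosomal, had 1, 2 and 5 against 20, 17 and 6, where the groups did not overlap, and 4, 0 and 5 against 6, 17 and 5, where they did. RAB3A, the synaptic vesicle RAB, with at most 15 reads in a library, RAB42, RAB43 and RAB6C overlapped between groups, and RAB6D did not (48, 43 and 52 against 23, 39 and 32). The 17 reads of RAB7B in carfilzomib replicate 2 amount to 0.119 FPKM.

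Within subfamilies of close relatives, the balance of FPKM between members changed most in RAB3 and RAB8. Totals took in only members with a mean of at least 1 FPKM, so RAB3A was left out of RAB3, and RAB6C and RAB6D of RAB6. RAB3B made up 28.7%, 26.2% and 33.7% of the RAB3 total with DMSO and 65.7%, 66.7% and 67.9% with carfilzomib, while RAB3C went from 26.0% ± 2.12 to 2.78% ± 0.336 and RAB3D from 44.5% ± 3.48 to 30.4% ± 1.03 (SD, n = 3 and 3). RAB8A held 61.6%, 62.7% and 61.01% of the RAB8 total with DMSO and 80.4%, 81.5% and 82.2% with carfilzomib, a gain of 19.6 percentage points. RAB2B gained 10.5 points on RAB2A, RAB1A gained 7.43 points on RAB1B, and RAB5A gained 6.95 points mostly from RAB5C, which lost 6.37. In each of these the groups did not overlap. Of the 18 shares compared, all that moved by at least 5 points reached the two-sided exact permutation p of 0.1 (0.12 after Benjamini-Hochberg adjustment), the smallest that 3 libraries against 3 allow, so no share could pass 0.05. RAB6B, RAB11A, RAB27A and RAB5B shares moved by less than 5 points. Of these, RAB6B (2.83 points) and RAB11A (1.91 points) reached the exact permutation p of 0.1 as well, and RAB27A and RAB5B had 0.2. This p therefore does not mark the larger moves. In a subfamily with 2 members counted the shares mirror each other, so the 18 shares are not separate results.

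**Figure D3:**
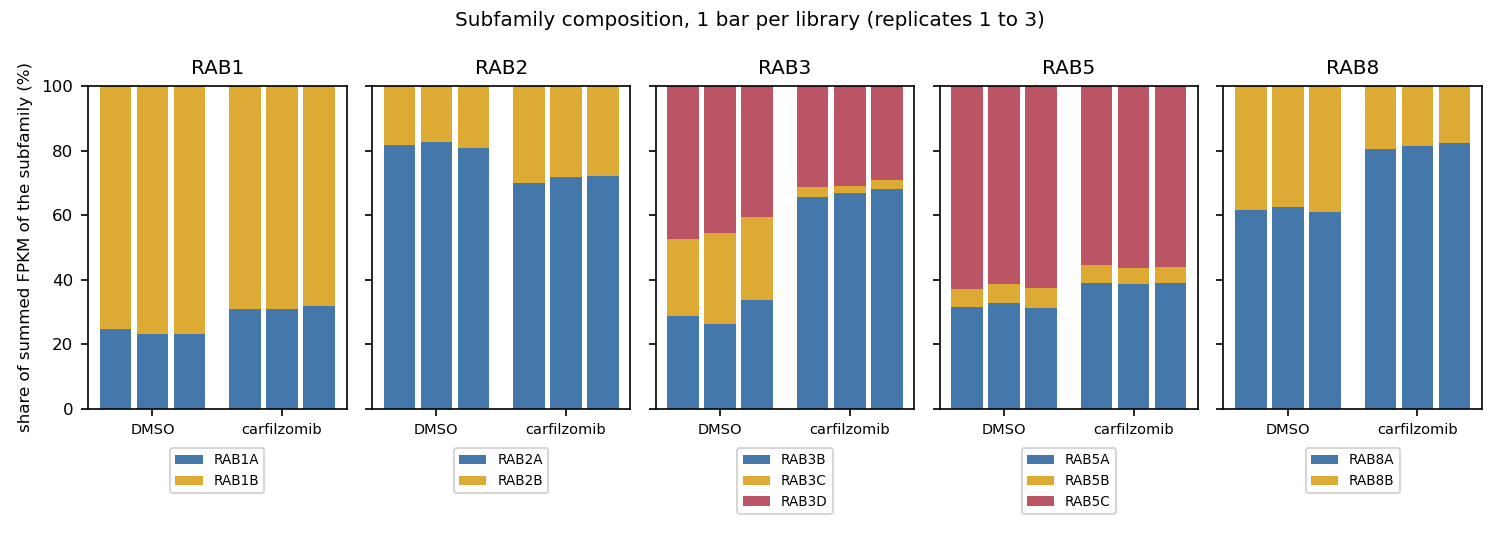
Share of the summed FPKM of 5 RAB subfamilies held by each member, as stacked bars that add up to 100%, with 1 bar per library (3 DMSO, 3 carfilzomib). Only members with a mean of at least 1 FPKM are counted, so RAB3A is left out of RAB3. RAB3B goes from 29.5% to 66.8% of RAB3 and RAB8A from 61.8% to 81.4% of RAB8 (means).

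Summed over its members, each class had a higher mean FPKM with carfilzomib, and leaving out single abundant genes changed the ratios. The secretory sum went from 572 ± 9.25 to 593 ± 8.60 FPKM, a ratio of 1.04. Without RAB1B it went from 280 ± 1.40 to 344 ± 5.21 FPKM, a ratio of 1.23. Without RAB1A it went from 482 ± 11.1 to 481 ± 9.54 FPKM, a ratio of 0.998. With both RAB1A and RAB1B left out the secretory ratio was 1.22. The endosomal sum went from 404 ± 1.60 to 444 ± 4.28 FPKM, a ratio of 1.10, and the ratio was 1.05 without RAB5A. The autophagic sum showed the largest ratio, 1.33, from 280 ± 7.15 to 371 ± 10.6 FPKM, but without RAB7A it turned to a ratio of 0.861, from 113 ± 4.49 to 97.2 ± 3.74 FPKM. That the autophagic class had the largest ratio thus rested on counting RAB7A as autophagic and not as endosomal. Over all 53 members the ratio was 1.12, from 1333 ± 6.05 to 1488 ± 19.7 FPKM, while the sum of all rows had a ratio of 0.972. RAB7A made up 12.5% ± 0.200 of all RAB FPKM with DMSO and 18.4% ± 0.295 with carfilzomib, and RAB1B 21.9% ± 0.633 and 16.8% ± 0.102. No test was made on these sums.

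**Figure D4:**
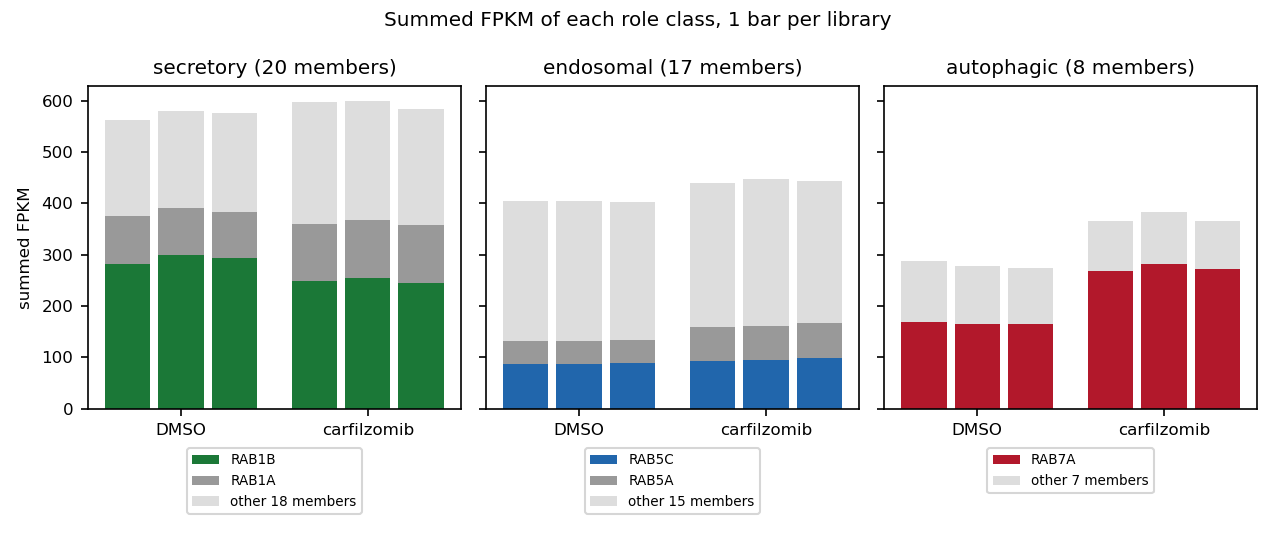
Summed FPKM of the secretory, endosomal and autophagic RAB members, with 1 stacked bar per library, the most abundant members in separate colours and a shared axis from 0. The autophagic bars average 280 FPKM with DMSO and 371 FPKM with carfilzomib, and the 7 members other than RAB7A average 113 and 97.2 FPKM in sum.

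When members with a second role were left out, the secretory class had 7 higher and 2 lower of 12 tested, the endosomal class 6 and 3 of 12, and the autophagic class 0 and 3 of 4. In each class 75% passed, against 81.6% of all tested genes. RAB7A and RAB33B, the only autophagic members that rose, were both on the list of members with a second role. That list was made by hand with results known. RAB29 and RAB32, which fell and were not on it, also act outside autophagy. The difference between classes was not tested.

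The machinery that prenylates, carries and switches RAB proteins was read from lists of known genes. In the list for prenylation and GDP dissociation 3 of 7 tested genes rose and 2 fell, so that 71.4% passed against 81.6% of all genes. GDI2, a GDP dissociation inhibitor, went from 85.7 ± 1.07 to 79.5 ± 1.38 FPKM (difference -0.11, limma adjusted p = 0.00546), a call lost with median-of-ratios scaling (difference -0.03). RABAC1, a prenylated RAB acceptor, rose by 0.60, and RABGGTB, the catalytic subunit of the enzyme that prenylates RABs, rose by 0.17. The RABGGTB call was lost with quantile normalization and without carfilzomib replicate 2. ICMT, which methylates prenylated cysteines, fell from 45.5 ± 0.487 to 20.2 ± 0.934 FPKM (difference -1.13, limma adjusted p = 2.53e-09).

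Among 48 tested exchange factors 20 rose and 19 fell, with a median difference of 0.00, and the 81.25% that passed were close to the 81.6% of all genes. The split moved with scaling, to 23 and 11 with median-of-ratios scaling, 23 and 14 on TPM values and 24 and 10 with quantile normalization. Calls of all tested genes moved too, from 4089 higher and 5007 lower in the main fit. They were 4572 and 4507, 4315 and 4730, and 4546 and 4543 with these scalings in that order. Without 1 library 18 to 20 exchange factors rose and 13 to 17 fell, and with the replicate block 21 and 17 did. All tested genes then had 3916 to 4032 rises and 4791 to 4960 falls without 1 library, and 4059 and 4995 with the block. C9orf72, part of a complex that acts in autophagy and listed here with the exchange factors, rose from 1.08 ± 0.0982 to 5.62 ± 0.467 FPKM (difference 1.67, limma adjusted p = 1.12e-08). SH3BP5L, an exchange factor for RAB11, and DENND5A, of the DENN family, rose by 1.17 and 1.08. DENND1A, an exchange factor for RAB35, fell by 0.79, RAB3IP (Rabin8), which activates RAB8, fell by 0.77 from 3.71 ± 0.174 to 1.76 ± 0.131 FPKM, and TRAPPC6A, a subunit of the TRAPP complex that activates RAB1, fell by 0.73.

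The list of GTPase-activating proteins was drawn largely from TBC-domain genes, and their activity was not checked. Of its 34 tested genes 10 rose and 20 fell, with a median of -0.22 (88.2% passed). Of all tested genes, 36.7% rose, 44.9% fell and the median was -0.07. TBC1D23, a TBC-domain protein of the trans-Golgi network, went from 12.4 ± 0.483 to 24.5 ± 0.845 FPKM, TBC1D10A, active on RAB35, rose by 0.66 and TBC1D15, active on RAB7, by 0.65. TBC1D16, TBC1D12 and TBC1D8 fell by 0.95, 0.82 and 0.81.

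Effectors were split, with 22 of 50 tested genes higher and 18 lower, or 44.0% and 36.0% against 36.7% and 44.9% of all genes, and a median of 0.10. The 3 largest rises were in MICALL2, an effector of RAB13 and RAB8, from 1.39 ± 0.0708 to 8.95 ± 0.470 FPKM (difference 2.06, limma adjusted p = 7.51e-10), PLIN3 (TIP47), a lipid droplet protein also described as binding RAB9, from 36.8 ± 2.31 to 126 ± 2.75 FPKM (difference 1.75), and MICALL1, an effector of RAB8 and RAB35, by 1.34. The 3 largest falls were in RAB11FIP4, a RAB11 effector, by 1.17, MYO5C, a myosin motor of secretory granules, by 1.06, and EXOC6, an exocyst subunit, by 0.96. MYO5C averaged 0.567 FPKM with carfilzomib and passed the filter only through the DMSO libraries.

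**Figure D5:**
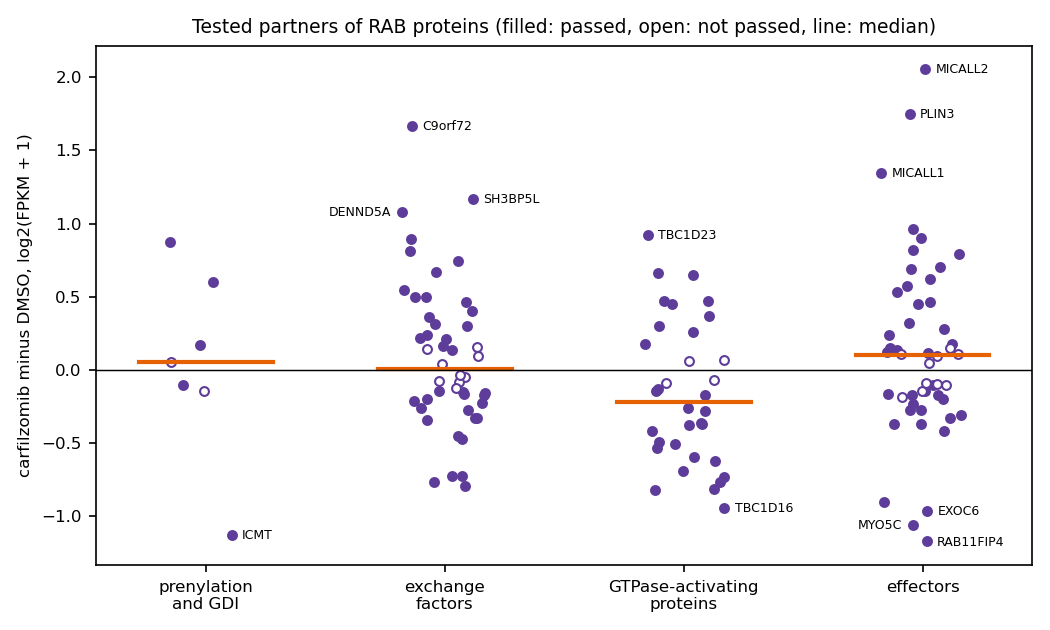
Difference between carfilzomib and DMSO on the log2(FPKM + 1) scale for each tested partner of RAB proteins in 4 lists (filled, passed; open, not passed; orange line, median of the list). The medians lie at 0.05, 0.00, -0.22 and 0.10 from left to right, and MICALL2 is the highest point at 2.06.

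The partners known to act with RAB7A were picked out after values had been seen, because RAB7A is the most abundant transcript of the family with carfilzomib. Of its exchange factor MON1-CCZ1, MON1B rose from 12.3 ± 0.809 to 18.3 ± 0.102 FPKM (difference 0.54), the near-identical pair CCZ1 and CCZ1B rose by 0.31 and 0.21 and is uncertain, and MON1A fell by 0.27, a call lost without DMSO replicate 2 or 3 or carfilzomib replicate 1 (limma adjusted p = 0.106, 0.0732 and 0.108), with median-of-ratios scaling, with quantile normalization and with no filter. Of the HOPS tethering complex, 5 subunits rose, from VPS39 at 0.70 and VPS11 at 0.62 to VPS18 at 0.45, VPS16 at 0.24 and VPS41 at 0.12, and VPS33A fell by 0.23. Among all tested genes 36.7% rose and 44.9% fell, and the median absolute difference was 0.40. As the set was picked with values in view, its count of rises is a description only. The VPS41 call was lost with no filter, with the replicate block and in 5 of 6 fits without a library, with limma adjusted p from 0.0582 to 0.141 in those 5. PLEKHM1, an adaptor between RAB7 and HOPS, rose from 2.70 ± 0.195 to 5.52 ± 0.0820 FPKM, RILP, the adaptor to dynein, fell by 0.42, and FYCO1, the adaptor to kinesin, did not pass (limma adjusted p = 0.0978). The activating proteins of RAB7 were split, TBC1D15 rising by 0.65 and TBC1D5 falling by 0.69.

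Promoter windows were found in RefSeq for 44 of the 53 members, and 5 motifs were searched on both strands. The E-box core CACGTG was in 6 members, RAB21, RAB24, RAB29, RAB31, RAB4A and RAB5A, which is 13.6% of members against 8.77% of all 27305 genes with a window. Of these 6, RAB5A, RAB21 and RAB31 rose and RAB4A, RAB24 and RAB29 fell. The longer TCACGTGA, the palindromic form found in promoters of lysosomal genes, contains CACGTG and was in RAB5A and RAB21 (4.55% of members, 1.18% of all genes). In RAB5A it overlaps a match to TGACNNNGC, the core of the antioxidant response element, and in RAB24 a CACGTG match does. TGACNNNGC was in 11 members (25.0%, against 16.1% of all genes). Among members with a window, TGACNNNGC was in 4 of 17 that rose, 3 of 12 that fell, 2 of 7 that did not pass and 2 of 8 not tested. RAB8B was among the members that held TGACNNNGC and RAB8A was not. GAANNTTC, the heat shock element, was in RAB23 alone (2.27%, all genes 8.21%), and TGATGNAA, the composite element bound by ATF4, in RAB28 alone (2.27%, all genes 4.46%). A match is a description of the letters in the window and not of a bound site.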

How the data were processed

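RNA sequencing was done on 3 DMSO and 3 carfilzomib libraries of Huh7 cells, grouped by treatment label. A mirVana RNA kit and a TruSeq stranded mRNA kit were used, per the labels' protocols. The authors deposited 1 table of FPKM values per gene symbol. Tools listed in the submitters' processing notes are HISAT2, HTSeq, fastp, DESeq2 and R 3.2.0, with the mouse build GRCm39, while the rows are human symbols, so no coordinates were taken with the table. Whole reads were recovered from the FPKM values in 99.98% of rows (relative tolerance 2e-12), among them all tested members.

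Genes were tested with limma 3.58.1 in R 4.3.3 (empirical Bayes with a mean-variance trend, two-sided) on log2(FPKM + 1) over all genes with a mean of at least 1 FPKM. It was checked on simulated data. Members, role classes, partner lists and tests were chosen with earlier results of these data known. Every member is named. Values per library are given for the 4 largest rises and 4 largest falls that passed in each class and for its most abundant member. Partners named are the 3 largest of each direction in each list, of which 1 is not reported here. Alternatives were other pseudocounts, filters, scalings and fits, limma-voom on the recovered reads, and each library left out. A planned comparison of protein sequences was not done, and RAB19, RAB20, RAB25, RAB33A, RAB36, RAB39A, RAB40A, RAB41, RAB44 and RAB4B were not analysed here.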

Additional observations from a re-analysis of the deposited data

How the results depend on the processing

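Over 17 alternatives the tested RAB members held 17 to 23 rises and 11 to 17 falls, and 30 of the 34 called members passed in the same direction in every alternative that tested them. RAB3C was tested in only 13 of the 17. The other 4 were RAB11B (lost with median-of-ratios scaling, on TPM values and without either of 2 libraries), RAB32 (median-of-ratios scaling and without either of 2 libraries), RAB5C (quantile normalization) and RAB6A (quantile normalization, no mean-variance trend and without any of 3 libraries). Of the members that did not pass, RAB30 passed in 6 alternatives, RAB5B in 5, RAB14 in 2 (quantile normalization, without carfilzomib replicate 2), RAB27B in 2 (limma-voom, without DMSO replicate 1) and RAB11A in 1 (median-of-ratios scaling). Of 703 comparisons 667 kept their call, 13 lost it, 16 gained it and 7 changed sign, all in members that did not pass: RAB11A with quantile normalization (-0.0281) and when libraries were left out (-0.00429 to 0.0168, the negative value without DMSO replicate 2), RAB12 and RAB27B with quantile normalization (0.00252 and 0.00705), RAB13 and RAB14 with median-of-ratios scaling (0.0169 and 0.0106), and RAB27A when libraries were left out (-0.0250 to 0.0842, the negative value without carfilzomib replicate 1). The cause was not tested. With a mean of at least 5 FPKM, 2 secretory members, 8 exchange factors, 9 GTPase-activating proteins and 7 effectors fell, as fewer genes were tested. Leaving out members with a second role gave 2 secretory falls and 0 autophagic rises, as fewer members were counted. Median-of-ratios scaling gave 1 fall in the prenylation list, 11 falls of exchange factors (10 with quantile normalization) and summed ratios of 1.09 secretory, 1.16 endosomal and 1.40 autophagic, and TPM gave 1.07 and 1.13 for the first 2; the cause was not tested. Without 1 library, rises ranged from 19 to 21 and falls from 12 to 15 among all members. The labels number replicates 1 to 3 in both groups, but same-numbered libraries did not deviate together (r = -0.0121, -0.00341 and 0.0126), and with the replicate block 20 members rose and 14 fell, as without it. Members under the filter had at most 176 reads in a library, which limits what can be read from them.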
